A study of Mus musculus with 6 samples.

Results

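Bulk RNA sequencing counts were examined for 10 mouse genes of intestinal lipid absorption and chylomicron assembly, Apoa1, Apoa4, Apob, Apoc3, Fabp1, Fabp2, Mttp, Dgat1, Rbp2 and Cd36. They were chosen by name, for their roles, and with earlier results of these data known. All 10 had a row in the count table of 23565 genes and passed the filter on low counts, as did 12439 genes in all. Cd36 passed that filter through 1 group alone, as described with its values below. Epithelial cells came from small-intestinal crypts of mice collected 16 hours after 1 mg of tamoxifen. In the Hopx-CreER group, 3 libraries came from tdTomato-positive cells of mice carrying HopXCreER and Rosa26LSL-tdTomato. In the Lgr5-CreER group, 3 came from cells with both eGFP and tdTomato, sorted from mice carrying Lgr5eGFP-IRES-CreER and Rosa26LSL-tdTomato. In both groups tamoxifen lets the Cre recombinase act in cells that use the Hopx or the Lgr5 locus, and the reporter then makes the red protein tdTomato. Strain, age and sex of the mice and the number of sorted cells are not stated in the labels. The groups differ in both genotype and sorting gate, which cannot be told apart here.

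After a meal, dietary fat enters the enterocyte as fatty acids and monoacylglycerol, and fatty acid binding proteins carry these lipids through the cytosol. Enzymes of the endoplasmic reticulum rebuild triacylglycerol, and the microsomal triglyceride transfer protein loads it onto apolipoprotein B to start a chylomicron, the particle that carries fat and fat-soluble vitamins into lymph. Smaller apolipoproteins join the particle's surface. In the small intestine this machinery is a feature of absorptive enterocytes, whose full programme is reached on the villus and not at the crypt base.

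Promoter windows of 8 of the 10 genes were available from RefSeq (build GRCm38.p6), for all but Apoc3 and Dgat1, and the 250 bases before each annotated start were searched. The 9-letter motif CAAAGTNCA, of the kind that the enterocyte factor HNF4 binds, was found on either strand in 3 of the 8 windows and in 1.19% of 32851 windows of the same length. The 3 windows, those of Apoa4, Fabp2 and Rbp2, are shown because they hold the match, marked in capitals. The 3 genes with a match were all higher in Hopx-CreER cells. Apoa1, Fabp1, Mttp and Cd36 hold none and were also higher, and Apob holds none and was not called higher. With Apob the only gene not called, these windows cannot show whether the match goes with the change. The RefSeq starts used here can differ from the GENCODE gene bounds given with each gene further on. The windows of Rbp2, Mttp and Cd36 lie wholly inside those bounds, so the bases before the GENCODE starts of these genes were not searched. Those of Apoa1, Apoa4, Apob and Fabp1 lie partly inside them. A match is a description of letters and not of binding.
Apoa4 promoter, plus strand, chr9:46240594-46240843: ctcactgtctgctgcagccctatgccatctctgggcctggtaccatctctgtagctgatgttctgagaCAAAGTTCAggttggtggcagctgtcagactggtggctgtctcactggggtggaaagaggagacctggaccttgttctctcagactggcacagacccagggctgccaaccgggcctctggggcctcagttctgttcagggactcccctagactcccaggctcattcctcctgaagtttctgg
Fabp2 promoter, plus strand, chr3:122894822-122895071: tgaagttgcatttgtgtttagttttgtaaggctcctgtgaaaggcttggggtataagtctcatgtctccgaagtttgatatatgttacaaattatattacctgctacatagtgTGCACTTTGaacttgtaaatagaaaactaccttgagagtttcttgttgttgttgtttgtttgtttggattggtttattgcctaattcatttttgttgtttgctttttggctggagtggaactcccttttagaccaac
Rbp2 promoter, plus strand, chr9:98490287-98490536: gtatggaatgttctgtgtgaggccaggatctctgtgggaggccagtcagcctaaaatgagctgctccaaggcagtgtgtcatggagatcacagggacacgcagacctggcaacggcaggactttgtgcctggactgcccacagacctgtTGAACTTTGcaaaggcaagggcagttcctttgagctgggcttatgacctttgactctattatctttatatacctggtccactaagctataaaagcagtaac
The match lay 182 to 174 bases before the start of Apoa4, 137 to 129 bases before that of Fabp2 and 101 to 93 bases before that of Rbp2. Other motifs were searched on both strands in the same way. The GATA factor motif AGATAAG was in 0 of the 8 windows and in 2.74% of all windows. The cyclic AMP response element TGACGTCA was in 0 of the 8 and in 1.55% of all. The CDX factor motif TTTATNG was in 4 of the 8, those of Apob, Fabp1, Fabp2 and Rbp2, and in 9.81% of all. The TATA box TATAAA was in 3 of the 8, those of Apob, Fabp1 and Rbp2, and in 12.4% of all, and it overlaps a CDX match in Apob and in Rbp2.

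Library totals ran from 11447879 to 13728768 counts in the Hopx-CreER group and from 10839306 to 14570555 counts in the Lgr5-CreER group. Levels are given as CPM (counts over the library total, scaled by edgeR's TMM factors), on which scale 3 counts amount to 0.20 to 0.28 CPM. Libraries are numbered by their order in the table. Lgr5-CreER libraries 2 and 3 have the same number in their column names, and which of the 3 mice of a genotype gave which library is not labelled, so p-values measure the spread between these libraries, which may in part be technical. Hopx-CreER library 3, whose column name carries an added tag that no label explains, stood apart from libraries 1 and 2 for several of the genes below, and results are given with and without it. As a check of the labelled tissue, the epithelial brush border gene Vil1 was at 690.2, 609 and 743 CPM in Hopx-CreER libraries 1 to 3 and at 544, 499 and 571 CPM in Lgr5-CreER libraries 1 to 3.

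Transcripts of 9 of the 10 genes were higher in Hopx-CreER cells, by log2 fold changes of 1.00 for Dgat1 to 4.2 for Apoa4, and Apob was the single gene that did not pass. The test was edgeR's quasi-likelihood test, with p-values adjusted over all 12439 genes by the Benjamini-Hochberg method and a threshold of 0.05. Over all tested genes, 9.45% were called higher in Hopx-CreER cells, 3.3% were called lower and 12.8% were called in either direction. Because the genes were chosen with earlier results known, these shares are a background and not a test of the set. The median log2 fold change was 2.82 over the 10 genes and -0.03 over all genes tested. For the same 9 genes, each Hopx-CreER library lay above each Lgr5-CreER library, against 18.8% of all tested genes with that order and 16.2% with the opposite order. In bulk libraries, fewer cells of a type and less RNA per cell cannot be told apart, so these values do not say whether more cells or other cells carried the transcripts.

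**Figure D1:**
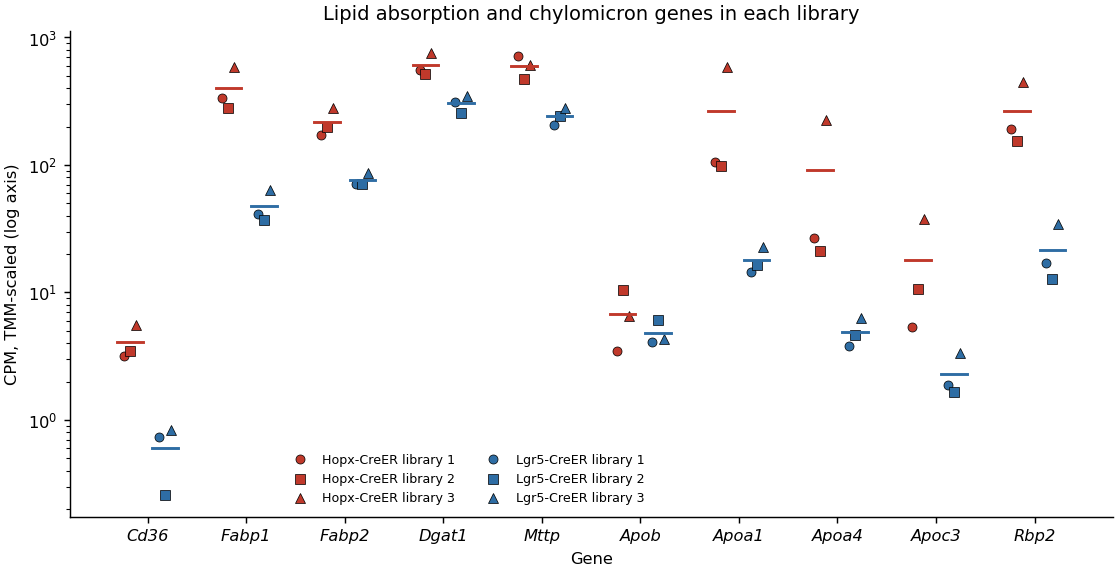
TMM-scaled CPM (log axis) of the 10 genes in each library; red symbols are the 3 Hopx-CreER libraries, blue symbols the 3 Lgr5-CreER libraries, and lines are group means. The groups are separate for every gene except Apob, and Apoa1, Apoa4 and Apoc3 are highest in Hopx-CreER library 3 (588, 224 and 37.9 CPM).

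Among the genes that bring fatty acids into and through the cell, the 2 cytosolic binding proteins were abundant and Cd36 was scarce. Fabp1 (ENSMUSG00000054422.7; plus strand, chr6:71199827-71205023, GRCm38), the liver-type fatty acid binding protein that the intestine also makes, was at 334, 281 and 582 CPM in Hopx-CreER libraries 1 to 3. It was at 41.3, 37.3 and 63.7 CPM in Lgr5-CreER libraries 1 to 3, so that the lowest Hopx-CreER library stood well above the highest Lgr5-CreER library. The log2 fold change of Fabp1 was 3.07 ± 0.30 (SE, n = 3 libraries a group; edgeR adjusted p 0.000638), or 8.39-fold.

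Fabp2 (ENSMUSG00000023057.5; plus strand, chr3:122895072-122899506), the intestinal-type binding protein, was at 170.4, 200.2 and 280 CPM in Hopx-CreER libraries 1 to 3 and at 70.7, 70.3 and 86.5 CPM in Lgr5-CreER libraries 1 to 3. The groups did not overlap, library 3 was the highest in each, and the rise of 1.51 ± 0.19 (SE, log2; edgeR adjusted p 0.00141) was 2.86-fold, a smaller factor than that of Fabp1. Cd36 (ENSMUSG00000002944.15; minus strand, chr5:17781690-17888801), a scavenger receptor that takes up long-chain fatty acids, was at 3.16, 3.47 and 5.57 CPM in Hopx-CreER libraries 1 to 3 and at 0.74, 0.26 and 0.83 CPM in Lgr5-CreER libraries 1 to 3. These Lgr5-CreER levels rest on 11, 3 and 12 counts, close to the limit of what these libraries can show. Cd36 rose by 2.69 ± 0.49 (SE, log2; edgeR adjusted p 0.00821).

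Cd36 is also made by endothelial cells and macrophages, and the markers of those cells were near 0. Of 6 endothelial markers, 3 had a row in the table, and Cdh5 was at 0 in every library. The summed level of the endothelial list was 2.33 to 4.23 CPM in Hopx-CreER libraries and 1.79 to 3.08 CPM in Lgr5-CreER libraries. Of the 7 macrophage markers, Adgre1 and C1qc were at 0 in every library, and 1 of the 2 tested, C1qa, was higher in Hopx-CreER cells. C1qa had 14, 20 and 14 counts in Hopx-CreER libraries 1 to 3 and 0 in each Lgr5-CreER library. It too passed the filter through Hopx-CreER libraries alone. The summed level of the macrophage list was 3.09 to 6.68 CPM in Hopx-CreER libraries and 0.78 to 2.14 CPM in Lgr5-CreER libraries, of the same order as Cd36 itself. The part of endothelial cells and macrophages in the Cd36 result was not tested.

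Dgat1 (ENSMUSG00000022555.11; minus strand, chr15:76502015-76511953), an acyltransferase that makes triacylglycerol from diacylglycerol and also esterifies retinol, was well expressed in both groups. It was at 558, 514 and 751 CPM in Hopx-CreER libraries 1 to 3 and at 313, 254 and 344.5 CPM in Lgr5-CreER libraries 1 to 3. The groups did not overlap, and the rise of 1.00 ± 0.17 (SE, log2; edgeR adjusted p 0.0057), or 1.998-fold, was the smallest among the 9 genes called.

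Of the 2 genes that start the particle, Mttp passed the test and Apob did not, and the difference between their changes was not tested. Mttp (ENSMUSG00000028158.14; minus strand, chr3:138089854-138144968), the subunit of the transfer protein that moves lipid, was at 720.5, 475 and 608 CPM in Hopx-CreER libraries 1 to 3 and at 204.5, 241 and 277.5 CPM in Lgr5-CreER libraries 1 to 3. It rose by 1.32 ± 0.17 (SE, log2; edgeR adjusted p 0.00178), or 2.49-fold, and, unlike most of the genes, was not highest in Hopx-CreER library 3. Mttp overlaps Trmt10a on the opposite strand, and the library kit does not mark strand. Trmt10a held 380 counts over the 6 libraries against 31607 for Mttp.

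Apob (ENSMUSG00000020609.14; plus strand, chr12:7977648-8016835), the scaffold protein of the chylomicron, was at 3.46, 10.5 and 6.49 CPM in Hopx-CreER libraries 1 to 3 and at 4.08, 6.05 and 4.34 CPM in Lgr5-CreER libraries 1 to 3. Hopx-CreER library 1 was the lowest of all 6 and library 2 the highest, so the groups overlapped. The log2 fold change was 0.50 ± 0.41 (SE; edgeR adjusted p 0.473), which did not pass the test and does not show that the groups were alike. Without Hopx-CreER library 2 it was 0.04 (edgeR adjusted p 0.956), and without Hopx-CreER library 1 it was 0.83 (0.167). Apob rested on 46 to 124 counts a library. Its annotated exons span 13.9 kb, and among the 1085 tested genes with at least 10 kb of exon its mean level per kilobase, 0.417 CPM, lay above that of 33.4%. Of these long genes, 30 (2.76%) were called higher in Hopx-CreER cells and 52 lower, and their median log2 fold change was -0.30. The part of transcript length in the Apob result was not tested.

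Among the surface apolipoproteins, Apoa4 and Apoa1 had the largest fold changes of the 10 genes over all 6 libraries, and all 3 had a wide spread between Hopx-CreER libraries. Without Hopx-CreER library 3, Rbp2 (3.00) and Fabp1 (2.68) had larger log2 fold changes than any of the 3. Apoa1 (ENSMUSG00000032083.8; plus strand, chr9:46228580-46230466), the main protein of high-density lipoprotein and also a chylomicron protein, was at 105, 98.6 and 588 CPM in Hopx-CreER libraries 1 to 3 and at 14.5, 16.4 and 22.8 CPM in Lgr5-CreER libraries 1 to 3. Apoa4 (ENSMUSG00000032080.6; plus strand, chr9:46240696-46243459), which the intestine secretes on chylomicrons during fat absorption, was at 26.7, 21.2 and 224 CPM in Hopx-CreER libraries 1 to 3 and at 3.82, 4.66 and 6.26 CPM in Lgr5-CreER libraries 1 to 3. Apoc3 (ENSMUSG00000032081.9; minus strand, chr9:46232933-46235636), an inhibitor of lipoprotein lipase, was at 5.35, 10.7 and 37.9 CPM in Hopx-CreER libraries 1 to 3 and at 1.87, 1.64 and 3.37 CPM in Lgr5-CreER libraries 1 to 3. For each of these 3 genes the groups did not overlap, but Hopx-CreER library 3 stood above the mean of libraries 1 and 2 by 5.78-fold for Apoa1, 9.35-fold for Apoa4 and 4.73-fold for Apoc3.

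The log2 fold changes were 3.88 ± 0.68 for Apoa1, 4.2 ± 0.88 for Apoa4 and 2.95 ± 0.69 for Apoc3 (SE; edgeR adjusted p 0.00678, 0.0149 and 0.0225). Without Hopx-CreER library 3 they were 2.49, 2.27 and 1.77, that is 5.63-fold against 14.7-fold for Apoa1, 4.83-fold against 18.4-fold for Apoa4 and 3.41-fold against 7.72-fold for Apoc3. All 3 kept their calls there (edgeR adjusted p 2.65e-05, 0.000267 and 0.0175), so the direction did not rest on that library while the size did. Leaving out any 1 of the Lgr5-CreER libraries ended the calls of Apoa4 (edgeR adjusted p 0.0583 to 0.0712) and Apoc3 (0.057 to 0.099), as did limma-voom in place of edgeR (0.101 and 0.0756), with log2 fold changes of at least 2.47.

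**Figure D2:**
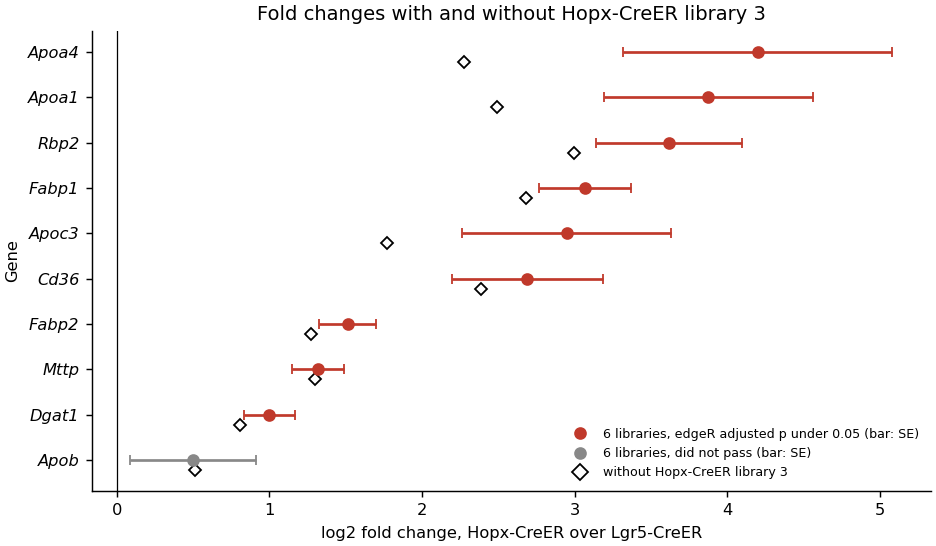
Change of the 10 genes as log2 of the Hopx-CreER to Lgr5-CreER ratio, with circles for the fit to 6 libraries (bars are SE; grey did not pass) and open diamonds for the fit without Hopx-CreER library 3. The diamonds of Apoa4, Apoa1 and Apoc3 lie furthest from their circles, while those of Mttp and Apob nearly coincide with them.

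Apoa1, Apoc3 and Apoa4 lie side by side on chromosome 9 in a cluster that ends with Apoa5, an activator of lipoprotein lipase. Apoa5 had 0, 9 and 30 counts in the Hopx-CreER libraries and 0 in each Lgr5-CreER library, and it was too low to be tested. The genes on either side gave other values. Sik3, a kinase next to Apoa1, had a log2 fold change of -0.18 ± 0.16 (SE; edgeR adjusted p 0.504), Zpr1, a zinc finger protein next to Apoa5, one of -0.09 ± 0.11 (0.631), and Bud13, a splicing factor beyond it, one of -0.13 ± 0.16 (0.626). Thus the 3 tested genes of the cluster were higher in Hopx-CreER cells, and none of these 3 neighbours passed.

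**Figure D3:**
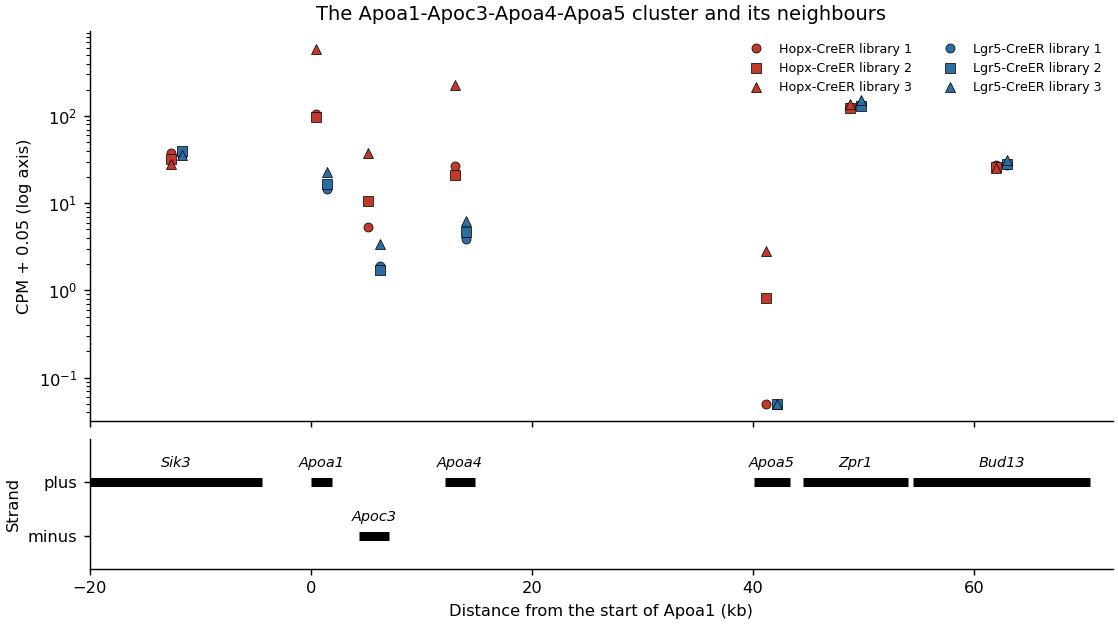
CPM + 0.05 (log axis) of the apolipoprotein cluster and its neighbours in each library, placed by distance in kb from the start of Apoa1, with the genes drawn to scale by strand below and Sik3 cut at the left edge. Symbols of the 2 groups are offset sideways. Apoa1, Apoc3 and Apoa4 separate the groups, while the libraries of Sik3, Zpr1 and Bud13 lie together.

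Rbp2 (ENSMUSG00000032454.9; plus strand, chr9:98486115-98509781), the cellular retinol binding protein of the enterocyte, which hands retinol on for esterification and packing into chylomicrons, was at 192, 154 and 445 CPM in Hopx-CreER libraries 1 to 3. It was at 16.9, 12.8 and 34.5 CPM in Lgr5-CreER libraries 1 to 3, and in both groups library 3 was the highest. Rbp2 rose by 3.62 ± 0.48 (SE, log2; edgeR adjusted p 0.00191), or 12.3-fold, and by 7.99-fold without Hopx-CreER library 3 (edgeR adjusted p 0.000161). Its locus overlaps that of Gm37113, a predicted gene on the same strand, which held 9 counts in all against 10062 for Rbp2.

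Levels of different genes were compared as CPM per kilobase of annotated exon. In Hopx-CreER cells the order of mean levels was Fabp1 (721), Rbp2 (274), Fabp2 (225), Apoa1 (213.5), Dgat1 (199), Mttp (96.8), Apoa4 (50.0), Apoc3 (17.7), Cd36 (1.13) and Apob (0.489). Fabp1 stood apart from Rbp2, while the library ranges of Rbp2, Fabp2, Apoa1 and Dgat1 overlapped from each to the next, as did those of Mttp, Apoa4 and Apoc3. In Lgr5-CreER cells the order was Dgat1 (99.5), Fabp1 (85.8), Fabp2 (78.6), Mttp (38.8), Rbp2 (22.2), Apoa1 (14.5), Apoa4 (2.71), Apoc3 (2.26), Apob (0.346) and Cd36 (0.169), with overlap from Dgat1 to Fabp1 to Fabp2, from Mttp to Rbp2 to Apoa1, and from Apoa4 to Apoc3. The place of Apoa1 among the Hopx-CreER levels rested on library 3, since it was at 84.8, 79.8 and 476 CPM per kilobase in Hopx-CreER libraries 1 to 3, against 116, 76.5 and 97.9 for Mttp.

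The spread within the groups followed particular libraries. Library 3 was the highest Hopx-CreER library for 8 of the 10 genes, all but Mttp and Apob, and library 3 was the highest Lgr5-CreER library for 9 of the 10, all but Apob. Enterocyte genes outside lipid handling, a list of 12, moved with them: library 3 was the highest Hopx-CreER library for 11 of the 12 and the highest Lgr5-CreER library for 9 of the 12. Of these 12 genes, 8 were higher in Hopx-CreER cells, 0 were lower and 4 did not pass, with a median log2 fold change of 2.20. The exception in Hopx-CreER cells was Krt20, a keratin of differentiated enterocytes, at 197, 166 and 116 CPM in Hopx-CreER libraries 1 to 3 and at 29.6, 23.6 and 64.6 CPM in Lgr5-CreER libraries 1 to 3. Lct, the lactase of the brush border, showed the widest gap, with 8.14, 5.67 and 97.5 CPM in Hopx-CreER libraries 1 to 3 and 0.80, 0.17 and 1.38 CPM in Lgr5-CreER libraries 1 to 3. The summed level of the 12 genes was 2400, 2114 and 3386 CPM in Hopx-CreER libraries 1 to 3 and 1308, 1147 and 1453 CPM in Lgr5-CreER libraries 1 to 3. A high Hopx-CreER library 3 was not particular to enterocyte genes. Markers of Paneth cells summed to 15800, 14760 and 32430 CPM in Hopx-CreER libraries 1 to 3. The sums of enteroendocrine and goblet markers were highest in Hopx-CreER library 2, and that of tuft markers in library 1. The share of all genes highest in library 3 was not counted. The share of enterocytes in a library was not measured, and its part in the lipid gene result was not tested.

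**Figure D4:**
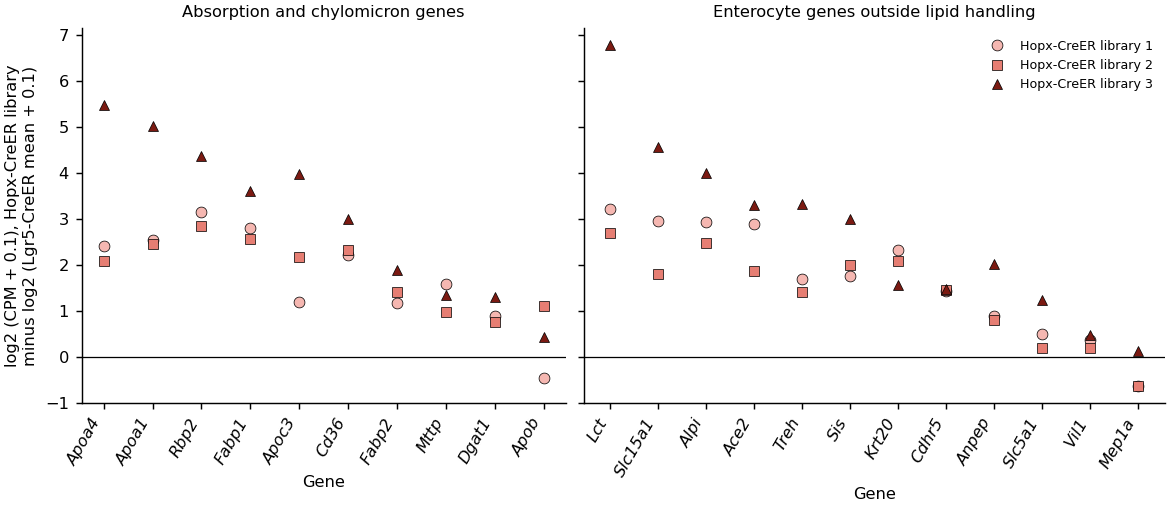
Log2 level of each Hopx-CreER library relative to the Lgr5-CreER mean (0.1 CPM added to both) for the 10 lipid genes on the left and 12 other enterocyte genes on the right. In both panels library 3 (dark triangles) is above libraries 1 and 2 for most genes, by the widest margins for Apoa4, Apoa1 and Lct.

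Of 5 markers of villus-tip enterocytes, 4 were tested. Of these, 0 were higher, 3 did not pass and Slc28a2, a nucleoside transporter, was lower in Hopx-CreER cells, at 13.3, 18.3 and 14.7 CPM against 63.2, 35.2 and 38.7 CPM in Lgr5-CreER cells (log2 fold change -1.57 ± 0.25, SE; edgeR adjusted p 0.00473). Klf4, a transcription factor of differentiated cells, had each Hopx-CreER library above each Lgr5-CreER library, at 7.76, 11.3 and 10.1 CPM against 4.89, 6.05 and 7.50 CPM in Lgr5-CreER cells, but did not pass (log2 fold change 0.66 ± 0.29, SE; edgeR adjusted p 0.171). The untested Nt5e had the same order, at 0.68, 1.18 and 2.32 CPM in Hopx-CreER cells against 0.20, 0 and 0.28 CPM in Lgr5-CreER cells. Ada had the opposite order, at 46.5, 41.9 and 41.3 CPM in Hopx-CreER cells against 52.8, 58.3 and 56.1 CPM in Lgr5-CreER cells. It also did not pass (log2 fold change -0.37 ± 0.13 SE, edgeR adjusted p 0.104), and the libraries of Egfr overlapped between the groups. Several apolipoproteins are also liver genes. Of the 4 tested hepatocyte markers, Alb alone was higher in Hopx-CreER cells, at 1.28, 6.09 and 3.15 CPM against 0.33, 0.35 and 0.07 CPM in Lgr5-CreER cells, and the list summed to 32.9 to 56.3 CPM in Hopx-CreER libraries and 21.8 to 50.3 CPM in Lgr5-CreER libraries, mostly Ttr and Cyp2e1. Other lineages differed between the groups too: all 7 Paneth, all 9 enteroendocrine, all 5 goblet and 3 of 4 tuft markers were higher in Hopx-CreER cells, and all 4 Lgr5 stem cell markers were lower. The part of these cells in the lipid gene result was not tested.

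Of 109 other genes of the pathway, also chosen with earlier results known, 105 had a row in the table and 94 were tested. Of these, 31 were higher in Hopx-CreER cells (33%, against 9.45% of all tested genes). Another 3 were lower, against 3.3% of all tested genes, and 60 did not pass. The median log2 fold change of the 94 was 0.42. The same shares of all genes are the background of the counts by step below. The 34 calls kept their side of the threshold in 22 cases whichever library was left out. Without Lgr5-CreER library 2, 20 of the 94 were called higher, against 4.72% of all genes in that fit. Leaving out Lgr5-CreER library 2 ended 12 of the 34 calls. It ended those of Abcg8, Scp2 and Bscl2 (edgeR adjusted p 0.128, 0.179 and 0.113), which were lost without any 1 Lgr5-CreER library. It also ended those of Slc27a4, Slc27a2, Dgat2, Surf4, Prap1, Hnf4g, Ppara, Nr1h4 and Pnliprp1 (edgeR adjusted p 0.0506 to 0.0822). Of these, Slc27a4 was also lost without library 1 and Slc27a2, Prap1, Hnf4g, Ppara and Pnliprp1 without library 3.

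**Figure D5:**
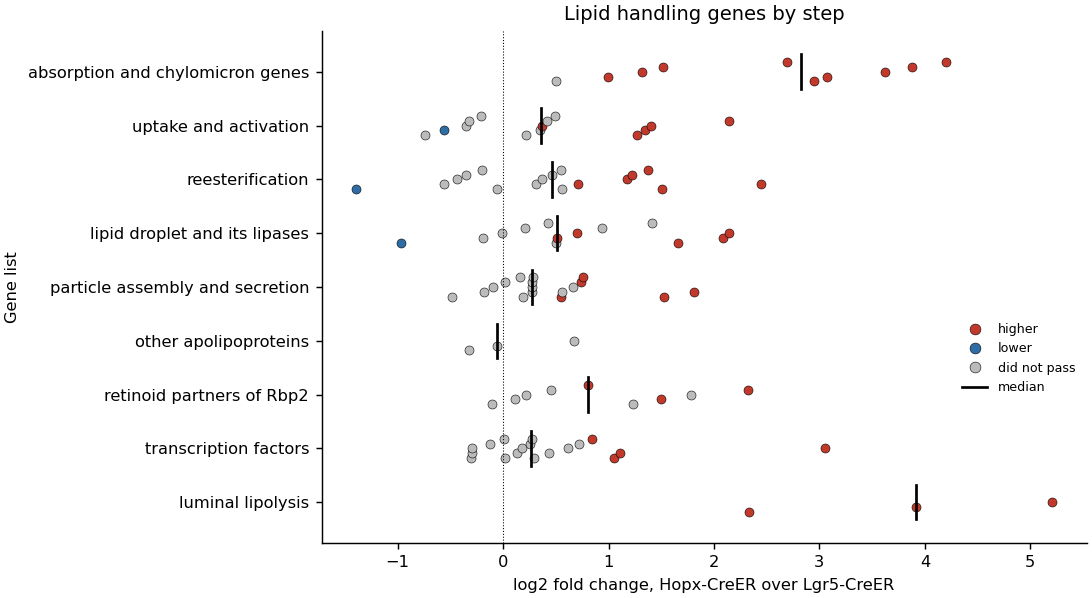
Change of the tested genes, as log2 of the Hopx-CreER to Lgr5-CreER ratio, by step of lipid handling; red genes were higher, blue lower, grey did not pass, and bars are list medians. Most steps hold a few genes far to the right among many near 0, whereas the medians of the absorption and chylomicron genes (2.82) and of the 3 luminal lipolysis genes (3.91) lie to the right.

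In uptake and activation, 5 of 14 tested genes were higher and 1 was lower. Npc1l1, the cholesterol importer of the brush border, was at 167, 131 and 231.5 CPM in Hopx-CreER libraries 1 to 3 and at 37.8, 29.4 and 52.8 CPM in Lgr5-CreER libraries 1 to 3, a log2 fold change of 2.14 ± 0.26 (SE; edgeR adjusted p 0.00122). Abcg5 and Abcg8, the paired half-transporters that return sterols to the lumen, rose by 1.35 and 1.27, the fatty acid transport protein Slc27a4 by 1.40 and the sterol carrier Scp2 by 0.37 (log2; edgeR adjusted p 0.00203, 0.0342, 0.0135 and 0.0451). The lower gene was Slc27a2, an acyl-CoA synthetase for very long chains, with a log2 fold change of -0.56 (edgeR adjusted p 0.0107). Acsl5, the main intestinal long-chain acyl-CoA synthetase, had one of 0.35 (0.189), and Dbi, the acyl-CoA binding protein, one of 0.42 (0.0655). Of these calls, those of Abcg8 and Scp2 ended when any Lgr5-CreER library was left out, and that of Scp2 also without Hopx-CreER library 1 or 2.

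In reesterification, 6 of 17 tested genes were higher and 1 was lower. Mogat2, the monoacylglycerol acyltransferase that supplies Dgat1 with diacylglycerol, was at 149.9, 124 and 293 CPM in Hopx-CreER libraries 1 to 3 and at 30.1, 22.5 and 51.1 CPM in Lgr5-CreER libraries 1 to 3 (log2 fold change 2.45 ± 0.38, SE; edgeR adjusted p 0.00382). Dgat2, the other enzyme of Dgat1's step, rose by 1.23 (log2; edgeR adjusted p 0.0136). The 2 cholesterol acyltransferases differed in sign. Soat2, the form that serves lipoprotein assembly in the intestine, was at 77.9, 65.5 and 114 CPM in Hopx-CreER libraries 1 to 3 and at 39.9, 33.8 and 40.1 CPM in Lgr5-CreER libraries 1 to 3, a rise of 1.18 ± 0.20 (SE, log2; edgeR adjusted p 0.00647). Soat1, the form found in most cells, was at 157, 128 and 138 CPM in Hopx-CreER libraries 1 to 3 and at 362, 386 and 363 CPM in Lgr5-CreER libraries 1 to 3, a log2 fold change of -1.39 ± 0.11 (SE; edgeR adjusted p 0.000374). The acyltransferase Agpat2 (1.38), the lipid phosphatase Plpp1 (1.504) and the phospholipid-remodelling Lpcat3 (0.71) were the other higher genes.

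Of 13 lipid droplet and lipase genes, 5 were higher and 1 was lower. Cidec and Cideb, droplet proteins of which Cideb also acts in lipoprotein lipidation, rose by 2.09 and 1.66 (log2; edgeR adjusted p 0.00703 and 0.00579), from low levels of 3.53 and 5.76 CPM in Lgr5-CreER cells. Among the esterases, Ces2e rose by 2.15 and Aadac by 0.70, while Ces1d had a log2 fold change of -0.96 (edgeR adjusted p 0.00122, 0.00854 and 0.00122). Bscl2, the seipin of droplet formation, rose by 0.51 (0.0219), a call that ended without Hopx-CreER library 2 or any 1 Lgr5-CreER library.

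Of 17 genes of particle assembly and secretion, 5 were higher and 0 were lower. P4hb, protein disulfide isomerase and the partner subunit of Mttp, was at 2540, 2276 and 2979 CPM in Hopx-CreER libraries 1 to 3 and at 1503, 1471 and 1630 CPM in Lgr5-CreER libraries 1 to 3, a rise of 0.76 ± 0.13 (SE, log2; edgeR adjusted p 0.00527). Tm6sf2 and Pla2g12b, both needed to lipidate apolipoprotein B particles, rose by 1.81 and 1.53 (log2; edgeR adjusted p 0.000979 and 0.00357). Surf4, a cargo receptor for lipoproteins, rose by 0.54 (0.011), and Prap1, a lipid-binding protein of the intestine, by 0.74 (0.0167). The coat proteins of the vesicles that leave the endoplasmic reticulum did not pass, with log2 fold changes of 0.28 for Sec31a (edgeR adjusted p 0.211) and 0.19 for Sec24c (0.262). Of 8 other apolipoprotein genes, 3 were tested and none passed.

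The partners of Rbp2 in vitamin A handling gave 3 higher genes of 9 tested. Rdh7, a retinol dehydrogenase, was at 32.9, 25.4 and 80.8 CPM in Hopx-CreER libraries 1 to 3 and at 10.9, 7.51 and 9.22 CPM in Lgr5-CreER libraries 1 to 3, a log2 fold change of 2.33 ± 0.41 (SE; edgeR adjusted p 0.00703) that was 1.65 without Hopx-CreER library 3. Bco2, a carotenoid cleaving enzyme, and Dhrs3, a retinal reductase, rose by 1.498 and 0.81 (log2; edgeR adjusted p 0.00583 and 0.00468).

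Of 18 transcription factors tied to these genes, 4 were higher and 0 were lower. Creb3l3, a membrane-bound factor that acts on Apoa4 and other lipid genes in liver and intestine, was at 131, 85.2 and 120.2 CPM in Hopx-CreER libraries 1 to 3 and at 10.7, 10.5 and 19.2 CPM in Lgr5-CreER libraries 1 to 3, an 8.29-fold difference (log2 fold change 3.05 ± 0.27, SE; edgeR adjusted p 0.000443). Among Hopx-CreER libraries, Creb3l3 in library 3 lay between libraries 1 and 2, while Apoa4 was highest in library 3. Among Lgr5-CreER libraries, both genes were highest in library 3. The part of Creb3l3 in the Apoa4 result was not tested. Hnf4g (1.06), the fatty acid receptor Ppara (1.11) and the bile acid receptor Nr1h4 (0.85) also rose on the log2 scale. Hnf4a, the close relative of Hnf4g, was at 1050, 1025 and 1034 CPM in Hopx-CreER libraries 1 to 3 and at 1356, 1275 and 1189 CPM in Lgr5-CreER libraries 1 to 3, and its log2 fold change of -0.30 ± 0.10 (SE; edgeR adjusted p 0.088) did not pass. Gata4, a factor of the proximal small intestine, had one of 0.30 (0.194). None of the 4 tested markers of that region passed. Cyp3a11 was at 1.205, 1.353 and 19.67 CPM in Hopx-CreER libraries 1 to 3. In Lgr5-CreER libraries it was at 0.803, 0.777 and 0.275 CPM (log2 fold change 3.56, edgeR adjusted p 0.067). Slc46a1 was at 11.98, 13.61 and 34.6 CPM against 11.85, 12.44 and 10.74 CPM in Lgr5-CreER cells (0.78, 0.229). Onecut2 had a log2 fold change of -0.29 (0.629). The part of gut region in the lipid gene result was not tested.

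All 3 tested genes of luminal lipolysis, which acts in the gut lumen before absorption, were higher in Hopx-CreER cells. Clps, the colipase, was at 160.0, 118 and 286 CPM in Hopx-CreER libraries 1 to 3 and at 12.2, 15.7 and 9.63 CPM in Lgr5-CreER libraries 1 to 3 (log2 fold change 3.91 ± 0.34, SE; edgeR adjusted p 0.000439). Pnliprp2 and Pnliprp1, lipase-related proteins, had log2 fold changes of 5.20 ± 0.59 and 2.33 ± 0.49 (edgeR adjusted p 0.00106 and 0.0149). Pnliprp2 was at 419, 86.4 and 499 CPM in Hopx-CreER libraries 1 to 3, with library 2 well below the others. It was at 9.30, 8.38 and 9.50 CPM in Lgr5-CreER libraries 1 to 3. Pnliprp1 rested on 28, 15 and 16 counts in the Lgr5-CreER libraries. Pnliprp2 also stands in the list of Paneth markers, whose summed level was 14760 to 32430 CPM in Hopx-CreER libraries and 1635 to 3190 CPM in Lgr5-CreER libraries. The part of Paneth cells in these 3 genes was not tested.

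The genes whose pattern over the 6 libraries was most like the mean standardized log2 CPM of the 10 genes, among 8288 genes with at least 10 CPM in the higher group, were Ndufs4 (Pearson r 0.999), a subunit of respiratory complex I, Sis (0.997), the sucrase-isomaltase of the brush border, Nudt7 (0.997), a peroxisomal coenzyme A hydrolase, Sdhb (0.996), a subunit of succinate dehydrogenase, and Plpp1 (0.996). The points are 6 libraries in 2 groups, and how many other genes come close to these values was not counted. Ndufs4 itself had a log2 fold change of only 0.26 ± 0.10 (SE; edgeR adjusted p 0.128), since the measure compares shape and not size.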

How the data were processed

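RNA was measured in 3 Hopx-CreER and 3 Lgr5-CreER libraries of sorted crypt cells. Per the labels, cells went into TRIzol LS and libraries were made by SMART-Seq v4 and Nextera XT, which do not mark strand. The authors deposited raw counts, whole numbers per versioned mouse Ensembl gene. The names kallisto, edgeR and GRCh38 appear, with no role, per the submitters' processing notes. GRCh38 is a human build, whereas the identifiers are mouse. How reads were counted is not stated in the labels.

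Column names show the gate and so the group, but not which sample of it. Symbols, positions and exon lengths came from GENCODE M21 (GRCm38), which matched 23479 identifiers and left 86 without a match. Groups were compared in R 4.3.3 with edgeR 4.0.16 (TMM, default filterByExpr, quasi-likelihood test, Benjamini-Hochberg over all tested genes). The filter asked for enough counts in 3 libraries, so a gene could pass through 1 group alone. Among the genes named here, Cd36, C1qa, Lct, Alb, Cyp3a11 and Slc51b passed through Hopx-CreER libraries alone. SE was derived from the F statistic, and CPM per kilobase used the union of annotated exons. The comparison was repeated with RLE or upper quartile factors, with unscaled library totals, with GC offsets, with DESeq2 1.42.0, with limma-voom (limma 3.58.1), with other count filters (none, or at least 1 CPM in 3 libraries), without each library in turn, and with Lgr5-CreER libraries 2 and 3 summed, whose columns carry 1 number. The procedure was also run on simulated counts, drawn as independent libraries with the fitted spread of each gene. That run does not cover an outlying library or libraries that share a mouse.

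The genes and lists were chosen with earlier results of these data known. Named are all 10 genes, pathway genes that were called, the 6 most abundant that were not, and the 5 genes closest in pattern. Other genes were named after their values were seen. The promoter motifs were chosen after the expression values were seen, and longer motifs for HNF1 and for direct repeats, also searched at first, are not reported.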

Additional observations from a re-analysis of the deposited data

How the results depend on the processing

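Under all 16 alternatives 0 of the 10 genes were called lower, and none of the 10 changed direction. The number called higher was 7 to 9 when 1 library was left out and 7 to 9 under the other settings. Apoa1, Fabp1, Fabp2, Mttp, Dgat1, Rbp2 and Cd36 kept their calls under every setting. Apoa4 and Apoc3 lost theirs with limma-voom, without any 1 Lgr5-CreER library, and with Lgr5-CreER libraries 2 and 3 summed (edgeR adjusted p 0.0678 and 0.0767), but kept them with Hopx-CreER library 3 also left out, when 9 genes were higher. Fits to 5 libraries have fewer residual degrees of freedom, whichever group the missing library is from. Each fit without 1 Hopx-CreER library called 9 genes higher. Why the Apoa4 and Apoc3 calls were lost was not tested. DESeq2 gave no adjusted p for Apoa4 and called 8 of the other 9 genes higher. Apoa4 had 355, 251 and 2417 counts in Hopx-CreER libraries 1 to 3, and why DESeq2 gave it no adjusted p was not tested. With library totals alone, the median of all genes moved by -0.114 on the log2 scale, and 9 genes were still higher. With offsets for GC content, 8 other pathway genes were lower in place of 3. The count of other pathway genes called higher ran from 20 to 33 when 1 library was left out, and the share of all genes called higher from 4.72% to 9.89%. The count of all genes called was 1586 over 6 libraries, 790 with Lgr5-CreER libraries 2 and 3 summed, and 723 to 1868 when 1 library was left out, with 944, 723 and 882 without Lgr5-CreER library 1, 2 and 3. The cause of these changes was not tested. No paired analysis was possible because the columns carry no replicate number that the 2 groups share. Depth limits Cd36 in Lgr5-CreER cells and Apob in all libraries, and intervals between libraries cover no error shared by a group.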

Other observations

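Bile acids return to the body through the enterocyte, and their transporters gave a mixed pattern. Slc51a, which with Slc51b forms the exporter on the blood-facing side, was at 78.0, 73.7 and 142 CPM in Hopx-CreER libraries 1 to 3 and at 13.1, 9.50 and 19.7 CPM in Lgr5-CreER libraries 1 to 3 (log2 fold change 2.79 ± 0.33, SE; edgeR adjusted p 0.00121). Slc51b was at 1.66, 2.28 and 8.998 CPM in Hopx-CreER libraries 1 to 3 and at 0.20, 0.17 and 1.03 CPM in Lgr5-CreER libraries 1 to 3 (log2 fold change 3.14 ± 0.85, SE; edgeR adjusted p 0.0412). These Lgr5-CreER levels rest on 3, 2 and 15 counts, close to the limit of what the libraries can show, and library 3 was the highest in each group. Slc10a2, the ileal importer, and Fabp6, the ileal bile acid binding protein, stayed at or below 0.67 CPM in every library of both groups and were too low to be tested.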
